A study of Mus musculus with 88 samples.

Results

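The Krüppel-like factors described here are 7 genes, Klf2, Klf3, Klf4, Klf5, Klf6, Klf9 and Klf17, chosen by symbol from the 55364 genes of 2 tables of transcript abundance, 1 of mouse embryonic stem (ES) cells with 19 libraries and 1 of late 2-cell embryos with 6. All 7 were found in both tables. The ES cells were male, wild type and of a hybrid C57BL/6 / 129 strain, grown on gelatin with LIF, the MEK inhibitor PD0325901 (0.5 µM) and the GSK3 inhibitor CHIR99021 (3 µM), and transfected with a plasmid by lipofection. Groups of 2 libraries carried a control plasmid (Empty) or a plasmid for the homeobox genes Obox3, Obox5, Obox6 or Dux, and 9 single libraries carried Obox1, Obox2, Obox4ps27, Obox4ps35, Obox7, Obox8, Crxos1, Crxos2 or Crxos3. The share of cells that took up a plasmid is not given in the sources used here, so fewer responding cells and a smaller response per cell cannot be told apart in these bulk libraries. The embryos were wild type and of the BDF1 strain, with 2 libraries a group. They were made by intracytoplasmic sperm injection (ICSI), or by nuclear transfer (SCNT), where an enucleated MII oocyte receives a cumulus cell nucleus, and the latter were injected with 10 ng/µl of Obox3 mRNA or, as control, of EGFP mRNA.

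Krüppel-like factors are transcription factors that bind GC-rich and CACCC-type DNA through C2H2 zinc fingers at the C terminus. In mouse ES cells Klf2, Klf4 and Klf5 act together in the network that holds the naive state, with Klf4 downstream of LIF and STAT3 and Klf2 sensitive to MEK signalling. Klf17 is known for transcription around the 2-cell stage, when the embryonic genome is switched on, and is normally low in ES cells.

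Values are in TPM, a unit that corrects read numbers for the length of the gene and the size of the library, so levels of different genes can be set side by side within a library. Differences are on the log2(TPM + 1) scale with their standard error (SE). A gene was called when the adjusted p of limma, over all genes tested in the table, was under 0.05 and the absolute difference was at least 1. In each list of paired values replicate 1 comes first, and the second ES library of Obox3, Obox5 and Dux is one whose column gives the group but no replicate number that the labels have. Nothing in the labels ties replicates to separate cultures or embryo collections, so the spread behind every p-value is that of these libraries and may be technical. The median gene differed between groups, with the cause not tested, and each member's call is also given after scaling the libraries to their common genes where that ends it.

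The plasmid genes were at high levels in the libraries that carry their names, between 933.3 and 8450 TPM for every gene other than Obox3, and at most 0.960 TPM in the Empty libraries. In the Obox3 libraries the reads lay mostly on the near-identical copy Obox3-ps5, at 450.7 and 262.8 TPM against 0 in Empty, and the Obox3 gene itself stood at 1.59 to 1.75 TPM. Genes at 1 TPM or more numbered 12071 to 17597 per ES library and 15604 to 16450 per embryo library. The 10 most abundant genes of each library held 54.5 and 58.8% of TPM in Empty and 64.3 and 73.8% with Obox3. They held 59.7 and 61.8% with Obox5, 54.1 and 60.9% with Obox6, 72.1 and 70.1% with Dux and 57.4 to 72.6% in embryo libraries. A larger share leaves fewer TPM for all other genes, and its part in the Klf differences was not tested. The depth was recovered only as far as what 1 read is worth: 0.136 to 0.441 TPM on a gene of 1 kb in the ES libraries and 0.0718 to 0.198 TPM in the embryo libraries. Of the 8 ES cell markers, all 8 reached 1 TPM in every ES library, with summed levels of 2083 to 2430 TPM in Empty, 1003 to 1319 in Obox3, 1425 to 1473 in Obox5, 1491 to 1686 in Obox6 and 907 to 972 in Dux. The 8 markers of differentiated or extraembryonic cells summed to 10.2 to 13.3 TPM in Empty, 37.4 to 39.1 in Obox3, 37.9 to 46.0 in Obox5, 69.3 to 97.5 in Obox6, where Cdx2 was at 0, and 8.18 to 11.9 in Dux. Of these 8 markers, 2 reached 1 TPM in every library of Empty and of Dux, and 3 in every library of Obox3, Obox5 and Obox6. The part of either marker list in the Klf results was not tested.

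The stretches next to the start sites of 6 members were read from a promoter table made from RefSeq on GRCm38.p6, and that of Klf5 is not shown here. The 250 bases before the start site are shown for Klf17, the member that went from under 1 TPM to 29.7 TPM or more with Obox3 and Obox5, for Klf4, which went down in the same libraries, and for Klf2, which did not pass the test there. All are 5′ to 3′ on the strand of the gene.
Klf17, chr4:117765667-117765916, minus strand: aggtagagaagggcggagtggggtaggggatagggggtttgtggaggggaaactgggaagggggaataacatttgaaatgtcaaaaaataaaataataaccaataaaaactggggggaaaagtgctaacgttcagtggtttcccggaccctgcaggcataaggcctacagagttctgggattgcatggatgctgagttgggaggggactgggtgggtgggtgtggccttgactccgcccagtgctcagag
Klf4, chr4:55532476-55532725, minus strand: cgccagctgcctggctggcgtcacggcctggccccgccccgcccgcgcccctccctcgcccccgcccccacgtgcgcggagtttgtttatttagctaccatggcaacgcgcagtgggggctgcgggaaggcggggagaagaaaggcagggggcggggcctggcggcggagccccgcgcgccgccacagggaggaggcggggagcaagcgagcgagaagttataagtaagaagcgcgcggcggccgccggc
Klf2, chr8:72318812-72319061, plus strand: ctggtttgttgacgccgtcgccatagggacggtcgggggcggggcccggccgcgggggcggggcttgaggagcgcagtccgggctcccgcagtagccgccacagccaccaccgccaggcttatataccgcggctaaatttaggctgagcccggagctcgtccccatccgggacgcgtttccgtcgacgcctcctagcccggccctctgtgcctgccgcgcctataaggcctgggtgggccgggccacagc
The stretch before Klf17 held 52.0% G and C, close to the median of 52.4% over the 32851 promoters of the table. The stretches before the other members were richer in G and C, at 74.0% for Klf4, 71.2% for Klf2, 78.4% for Klf3, 64.8% for Klf6 and 59.6% for Klf9.

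Each window from 250 bases before to 50 bases after the start site was searched on both strands for TAATCC, the core that bicoid-type homeodomains such as the Obox group are known to bind. It was found next to 1 of the 6 members, Klf17, on the strand opposite to the gene and 30 bases after the start site. It is shown here as the capitals GGATTA on the strand of the gene.
Klf17 site, chr4:117765621-117765648, minus strand: cagccattgtgGGATTAtggcgtagtag
The same letters stood in 7.06% of all promoters of that length, so a match is a description of the window and not a site of binding. A STAT-type sequence, TTCCNGGAA, was in none of the 6 windows and in 1.15% of all promoters.

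Klf17 (ENSMUSG00000048626.5, chr4:117756659-117765666) was the member that separated Obox3 and Obox5 from every other plasmid. It stood at 0.224 and 0 TPM in the Empty libraries, where 3 reads would be worth 0.336 and 0.256 TPM. With Obox3 it stood at 57.7 and 39.4 TPM, on 591 and 696.33 recovered reads. With Obox5 it stood at 37.9 and 29.7 TPM, on 389 and 361.33 reads. All 4 of these libraries lay far above the other 15 ES libraries, and reads that are not whole were counted in part. In Obox6 it was at 0.103 and 1.07 TPM, on 1 and 11 reads, and in Dux at 0.0588 and 0.667 TPM, on 1 and 8 reads. Both of these groups overlapped Empty.

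Klf17 rose by a log2 difference of 5.46 with Obox3 (SE 0.354, adjusted p = 6.6e-05) and of 4.96 with Obox5 (SE 0.354, adjusted p = 0.000114). Among 20355 genes tested it had the 14th largest increase with Obox3 and the 18th largest with Obox5. Since Empty held 2 Klf17 reads in all, the ratio of reads adjusted for library totals is wide: 475 with Obox3 (exact 95% interval 131 to 3929) and 345 with Obox5 (95.1 to 2853). The ratio was 6.20 (1.38 to 57.0) for Obox6 and 3.20 (0.663 to 30.5) for Dux, and these intervals cover counting error only. With limma the differences for Obox6 and Dux were 0.45 (SE 0.354, adjusted p = 0.531) and 0.26 (SE 0.354, adjusted p = 0.542), and neither was called. Obox3 and Obox5 did not differ beyond their spread (0.49, SE 0.354, adjusted p = 0.598), although their libraries do not overlap. Klf17 passed the filter of 1 TPM in at least 2 libraries through the Obox3 and Obox5 groups.

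The 2-cell genes that marked Dux were high in libraries where Klf17 was not. Summed over Zscan4c, Zscan4d, Zfp352, Tcstv3 and Usp17lc, the late 2-cell markers stood at 1910 to 2127 TPM in the Dux libraries, at 5.09 to 6.99 in Obox3 and at 9.57 to 10.4 in Obox5, against 0.135 to 1.77 in Empty. Klf17 was called higher in Obox3 than in Dux (5.19, SE 0.354, adjusted p = 2.87e-05) and higher in Obox5 than in Dux (4.70, SE 0.354, adjusted p = 4.4e-05).

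**Figure D1:**
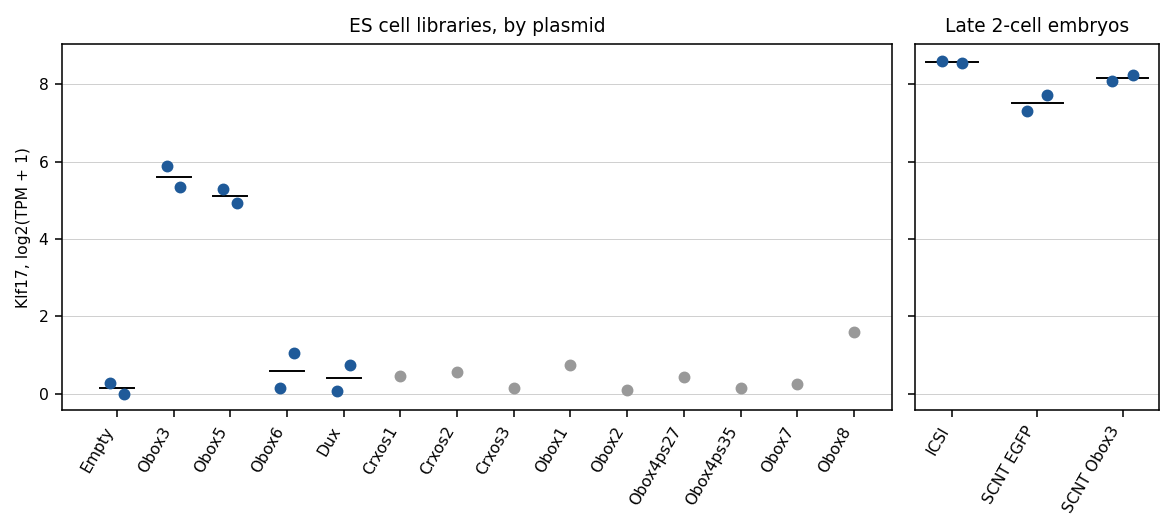
Klf17 in log2(TPM + 1) in each of 19 ES cell libraries by plasmid and in each of 6 late 2-cell embryo libraries by group, with points for libraries, bars for the means of groups of 2 and grey points for single libraries. The Obox3 and Obox5 points (29.7 to 57.7 TPM) lie apart from all other ES libraries, and the embryo points lie above them, in a table normalised separately.

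Klf4 (ENSMUSG00000003032.8, chr4:55527137-55532475), a reprogramming factor and a LIF target, had the highest mean TPM of the members in Empty, although its libraries overlap those of Klf2. Its levels were 86.7 and 78.4 TPM in Empty, 25.96 and 19.0 with Obox3, 22.4 and 21.4 with Obox5, 54.7 and 46.8 with Obox6 and 15.1 and 14.2 with Dux. Every library of the 4 plasmids lay below both Empty libraries, with Obox6 nearest to them. Klf4 fell with Obox3 (-1.84, SE 0.194, adjusted p = 0.000448), with Obox5 (-1.87, SE 0.194, adjusted p = 0.000655) and with Dux (-2.41, SE 0.194, adjusted p = 0.000105). The Obox6 difference of -0.69 (SE 0.194, adjusted p = 0.0846) was not called.

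Klf5 (ENSMUSG00000005148.8, chr14:99298691-99313412), which acts beside Klf4 and Klf2 in ES cells, stood at 55.9 and 44.6 TPM in Empty. It was at 18.6 and 8.95 TPM with Obox3, 26.3 and 20.1 with Obox5, 32.8 and 23.3 with Obox6 and 8.99 and 7.81 with Dux. All these libraries lay below both Empty libraries, and the Obox3 libraries were the widest apart. Klf5 fell with Obox3 (-1.87, SE 0.325, adjusted p = 0.00416) and with Dux (-2.44, SE 0.325, adjusted p = 0.000446). The differences of -1.09 with Obox5 (SE 0.325, adjusted p = 0.0573) and -0.83 with Obox6 (SE 0.325, adjusted p = 0.201) were not called. The Obox5 difference was called with a filter at 5 TPM (adjusted p = 0.0272), from only the groups compared (adjusted p = 0.0263), without Obox3 replicate 1 (adjusted p = 0.0175) and without the unnumbered Obox3 library (adjusted p = 0.0177), though not after scaling (-0.78). With the 3 unnumbered libraries left out, Klf5 with Obox3 was at -1.38 (adjusted p = 0.0631).

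Klf3 (ENSMUSG00000029178.14, chr5:64803521-64832901), a repressor that recruits CtBP, was the member with the largest decrease for Obox3 and for Obox5. Its levels were 6.58 and 6.18 TPM in Empty, 0.781 and 0.549 with Obox3, 0.966 and 0.807 with Obox5, 3.39 and 2.38 with Obox6 and 0.691 and 1.25 with Dux. Each Obox3 and Obox5 library lay under 1 TPM, on 37.5 to 46.5 reads over a counted length of 11243 bases. Klf3 fell with Obox3 (-2.15, SE 0.228, adjusted p = 0.000463), with Obox5 (-1.97, SE 0.228, adjusted p = 0.00111) and with Dux (-1.92, SE 0.228, adjusted p = 0.000337). The Obox6 difference of -0.94 (SE 0.228, adjusted p = 0.0534) was not called. The gene overlaps Gm38457 and Gm31684, and the strand setting of the counting is not given in the sources used here, so reads of these genes cannot be told apart with certainty.

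Klf2 (ENSMUSG00000055148.7, chr8:72319062-72321654), the member on which MEK signalling is known to act, followed another order. It stood at 81.1 and 61.5 TPM in Empty, 61.2 and 39.4 with Obox3, 70.6 and 71.0 with Obox5, 22.9 and 26.8 with Obox6 and 9.86 and 13.9 with Dux. The Obox5 libraries lay between the 2 Empty libraries, while both Obox6 libraries lay under every Empty, Obox3 and Obox5 library. Klf2 fell with Obox6 (-1.48, SE 0.261, adjusted p = 0.0151) and with Dux (-2.496, SE 0.261, adjusted p = 0.000244). Neither Obox3 (-0.51, SE 0.261, adjusted p = 0.166) nor Obox5 (0.00, SE 0.261, adjusted p = 1) was called, and the Obox3 difference was 0.12 after scaling. The Obox6 call was lost without Empty replicate 1 (-1.28, adjusted p = 0.116), without Obox6 replicate 1 (-1.37, adjusted p = 0.0874), without Obox6 replicate 2 (-1.58, adjusted p = 0.0544) and without the 3 unnumbered libraries (-1.48, adjusted p = 0.0604).

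Klf9 (ENSMUSG00000033863.2, chr19:23141226-23168129), known as a target of glucocorticoid and thyroid hormone receptors, stood at 34.9 and 28.8 TPM in Empty. It was at 25.3 and 18.1 TPM with Obox3, 26.7 and 24.3 with Obox5, 36.6 and 39.6 with Obox6 and 4.34 and 6.98 with Dux. Dux was the group that stood apart, at -2.32 (SE 0.244, adjusted p = 0.000248), and the other 3 differences of -0.55, -0.30 and 0.26 were not called.

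Klf6 (ENSMUSG00000000078.7, chr13:5861489-5870393), a widely expressed member, was low in Empty at 5.44 and 4.20 TPM. It was at 3.20 and 2.32 TPM with Obox3, 3.97 and 3.82 with Obox5, 10.4 and 9.10 with Obox6 and 1.58 and 1.32 with Dux. The 2 Obox6 libraries had the highest Klf6 of all 19 ES libraries. Their difference from Empty was 0.89 (SE 0.202, adjusted p = 0.0408), under the size of change that makes a call, and 0.99 after scaling. Klf6 fell with Dux (-1.24, SE 0.202, adjusted p = 0.000935), and this was -0.21 after scaling (adjusted p = 0.333).

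**Figure D2:**
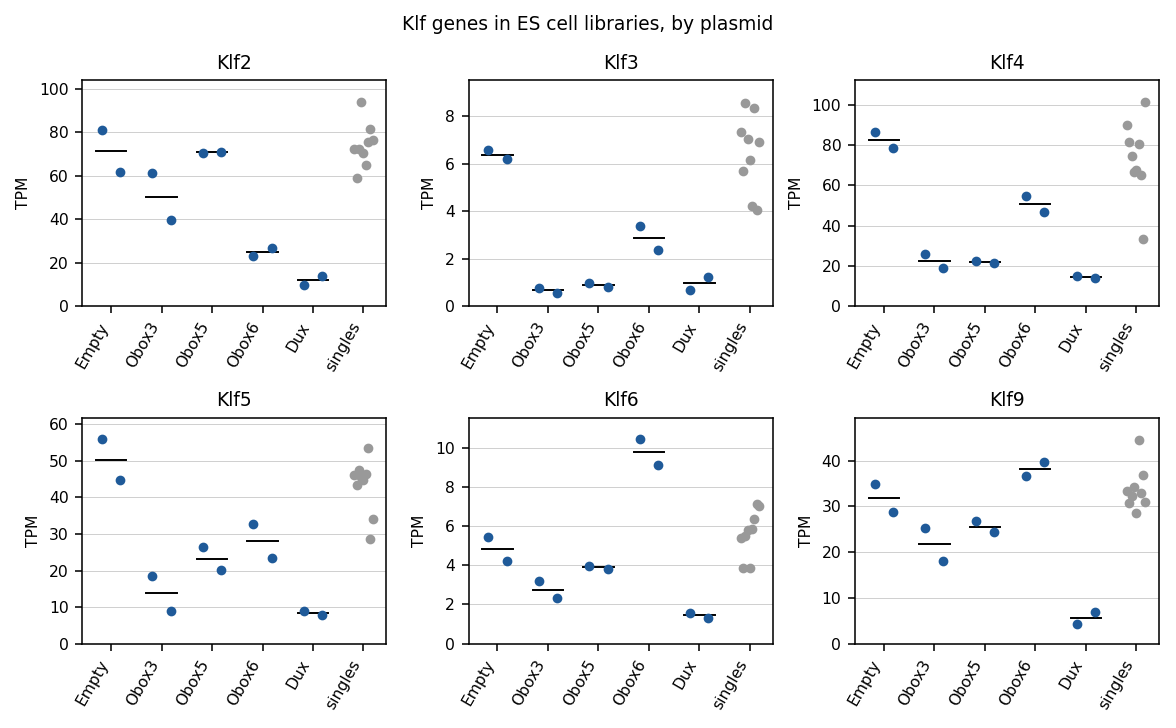
TPM of Klf2, Klf3, Klf4, Klf5, Klf6 and Klf9 in each ES cell library by plasmid, with a bar at the mean of each group of 2 and the 9 single libraries in grey. Klf4, Klf5 and Klf3 are lower in Obox3 and Obox5 than in Empty, Klf2 is near Empty in Obox5 and low in Obox6, and Klf6 is highest in Obox6 (10.4 and 9.10 TPM).

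Against Empty, 4 of 7 members were called with Obox3, where 18.3% of all genes tested were called. Of them 1 was higher (4.67% of all genes) and 3 were lower (13.6% of all genes). With Obox5, 3 members were called (10.3% of all genes), 1 higher (4.79%) and 2 lower (5.47%). With Obox6, 1 member was called (4.38% of all genes), with 0 higher (2.39%) and 1 lower (1.99%). With Dux, 6 members were called (48.5% of all genes), with 0 higher (4.12%) and 6 lower (44.4%). Lower calls were thus common across the table in Dux before scaling. The median member stood at -0.63, -0.30, -0.69 and -2.32 for Obox3, Obox5, Obox6 and Dux, beside medians of -0.42, -0.20, -0.09 and -0.97 over all genes tested.

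The same 2 Empty libraries serve all 4 comparisons, so likeness among the comparisons is not counted as a result. After scaling to common genes, all calls with Obox3, Obox5 and Obox6 stood, at 5.63 for Klf17, -1.67 for Klf3, -1.21 for Klf4 and -1.25 for Klf5 with Obox3. They were 4.81, -1.63 and -1.55 for Klf17, Klf3 and Klf4 with Obox5, and -1.30 for Klf2 with Obox6. With Dux 4 of the 6 remained, Klf2 at -1.11, Klf4 at -1.01, Klf5 at -1.08 and Klf9 at -1.003. Klf3 at -0.97 and Klf6 at -0.21 did not remain. After scaling, 437 of all 20355 genes tested were called lower with Dux, 768 with Obox3, 490 with Obox5 and 269 with Obox6. Called higher were 1423 with Dux, 1587 with Obox3, 1248 with Obox5 and 571 with Obox6. Scaling also moved the split of all calls: higher calls were 25.6% of calls with Obox3 and 67.4% after scaling, 46.6% and 71.8% with Obox5, 54.5% and 68.0% with Obox6, and 8.49% and 76.5% with Dux.

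**Figure D3:**
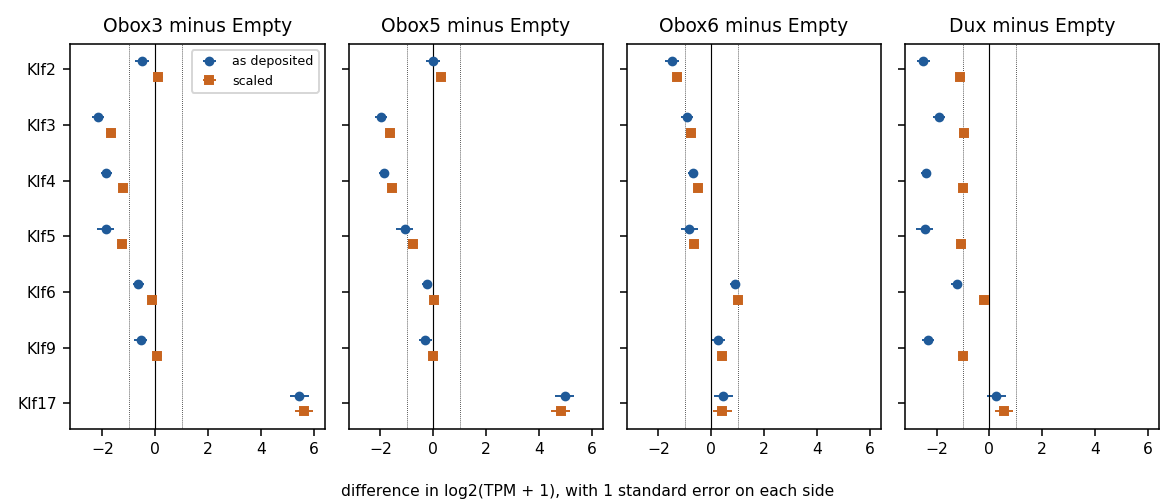
Difference in log2(TPM + 1) from Empty, with 1 SE on each side, of the 7 members for the Obox3, Obox5, Obox6 and Dux plasmids, as deposited (blue) and after median-ratio scaling (orange), with dotted lines at the size a call needs. Klf17 stands at 5.46 with Obox3 and 4.96 with Obox5, and with Dux the values of the 6 members called lie nearer to 0 after scaling.

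Compared with each other, Obox3 and Obox5 gave 0 called members with limma, where 0.054% of genes were called (0.0393% higher and 0.0147% lower). At an unadjusted p under 0.05 there was 1 member, Klf5 (-0.78), of 2231 genes in all. Obox6 stood apart from both. Against Obox6, Obox3 had 4 members called (9.13% of all genes): Klf17 higher (2.52%) and Klf3, Klf4 and Klf6 lower (6.61%). Against Obox6, Obox5 had 5 called (4.41% of all genes): Klf17 and Klf2 higher (2.4%), and Klf3, Klf4 and Klf6 lower (2%).

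The Klf6 difference was -1.52 between Obox3 and Obox6 (SE 0.202, adjusted p = 0.00312) and -1.13 between Obox5 and Obox6 (SE 0.202, adjusted p = 0.0152). Klf2 was 1.48 higher in Obox5 than in Obox6 (SE 0.261, adjusted p = 0.0149), and 0.96 higher in Obox3 than in Obox6 (SE 0.261, adjusted p = 0.0431), or 1.41 after scaling (adjusted p = 0.00178). After scaling, Klf3 and Klf4 were no longer called for Obox3, at -0.92 and -0.69, and Klf3 and Klf6 for Obox5, at -0.87 and -0.98. Leaving out single libraries took the members called to 2 to 6 for Obox3 and to 1 to 5 for Obox5. For Obox3 the count was 2 without Obox6 replicate 1 and 6 without Obox3 replicate 1. For Obox5 it was 1 without Obox5 replicate 1, without the unnumbered Obox5 library or without Obox6 replicate 1, and 2 without Obox6 replicate 2.

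Against Dux, Obox3 had 3 members called, Klf17, Klf2 and Klf9, all higher (23.7% of all genes called, 20.3% higher and 3.42% lower). Obox5 had 5, Klf17, Klf2, Klf5, Klf6 and Klf9, all higher (31.8% of all genes called, 28.9% higher and 2.87% lower). Obox6 had 5, Klf2, Klf4, Klf5, Klf6 and Klf9, all higher (40.1% of all genes called, 36.3% higher and 3.74% lower). After scaling these counts were 3, 3 and 2. Over all 20355 genes tested, 1883, 1467 and 1168 were then higher and 1696, 1380 and 1544 lower. Scaling moved the share of higher calls among all calls from 27.6% to 64.5% for Obox3 against Obox6, from 54.5% to 67.2% for Obox5 against Obox6, and from 85.6% to 52.6%, 91.0% to 51.5% and 90.7% to 43.1% for Obox3, Obox5 and Obox6 against Dux. Klf9 was called in all 3 comparisons as deposited and after scaling, at 1.78, 2.02 and 2.58 as deposited and at 1.08, 1.003 and 1.42 after scaling. The Obox6 libraries stood above Dux in every member other than Klf17, whose groups overlap, in TPM as deposited. After scaling Klf2 was at -0.19 for Obox6 against Dux, in place of 1.02, with Klf4 at 0.49 and Klf5 at 0.42. For Obox5 against Dux, Klf5 was at 0.30 and Klf6 at 0.22 after scaling. These calls did not remain after scaling.

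Among the 9 single libraries, which have no replicate and no test, Obox8 stood apart. Its Klf4 was at 33.6 TPM, below the 65.0 to 101 TPM of the other 8. Its Klf5 was at 28.5 TPM against 34.2 to 53.5. Its Klf3, at 4.05 TPM, was just below the 4.20 to 8.56 TPM of the others and within counting error of the lowest. Its Klf17 was at 2.05 TPM on 24 reads, against 0.0627 to 0.686 TPM. Its ratio to the 2 Empty reads was 21.2 (exact 95% interval 5.25 to 185, which covers counting error only and not the spread between libraries). Its Klf6, at 7.10 TPM, was just above the 3.84 to 7.04 TPM of the others, and its Klf2 at 81.3 TPM and Klf9 at 36.9 TPM lay within the 58.9 to 93.8 TPM and 28.6 to 44.6 TPM of the others. The other 8 plasmids gave levels near the Empty libraries for most members, with a median of 77.7 TPM for Klf4, 45.9 for Klf5 and 72.4 for Klf2.

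Ratios between members of 1 library do not depend on the scaling. Klf4 over Klf2 was 1.07 and 1.27 in Empty, 0.424 and 0.483 with Obox3, 0.317 and 0.301 with Obox5, 2.39 and 1.74 with Obox6 and 1.54 and 1.03 with Dux. It was 0.413 with Obox8 and 0.713 with Obox1. The Obox3 and Obox5 libraries lay below Empty and the Obox6 libraries above it, while the Dux libraries lay on both sides of Empty. Klf9 over Klf2 separated Obox6 from the rest, at 1.597 and 1.478 against 0.430 and 0.467 in Empty and 0.440 and 0.503 in Dux. A ratio shows unequal change and not which of its genes changed.

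Together the 7 members summed to 270.9 and 223.7 TPM in Empty, 192.7 and 127.7 with Obox3, 188.8 and 171.1 with Obox5, 160.9 and 149.1 with Obox6 and 40.7 and 46.1 with Dux. Klf17 made up 29.9 and 30.8% of that sum with Obox3 and 20.1 and 17.4% with Obox5, against 0.0826 and 0% in Empty. Klf4 made up 32.0 and 35.1% in Empty, 13.5 and 14.9% with Obox3 and 11.9 and 12.5% with Obox5. These shares do not depend on the scaling, but the sums do, and the sums are given as deposited. Scaling divides each sum by a library factor, of 1.51 and 1.36 in Empty and 1.12 and 0.746 with Obox3. The factor was 1.23 and 1.08 with Obox5, 1.34 and 1.20 with Obox6 and 0.498 and 0.549 with Dux. Differences between the sums therefore include differences in scale.

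In late 2-cell embryos Klf17 was the most abundant member in every library, at 390.5 and 370.9 TPM after ICSI, 158.3 and 210.0 TPM in SCNT embryos given EGFP and 270.6 and 299.0 TPM in SCNT embryos given Obox3. The 3 groups do not overlap, with the Obox3 embryos between the other groups. These values rest on 3670 to 9048 recovered reads a library. Klf17 made up 77.6 and 68.7% of the summed TPM of the 7 members after ICSI, 58.4 and 68.3% with EGFP and 69.6 and 72.4% with Obox3.

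SCNT embryos given EGFP had 2 of 7 members called against ICSI embryos (17.3% of all genes), with 2 lower (12.5%) and 0 higher (4.8%). They were Klf17 (-1.06, SE 0.193, adjusted p = 0.0124) and Klf9 (-1.56, SE 0.238, adjusted p = 0.00734). Klf9 was at 24.9 and 36.7 TPM after ICSI, 8.39 and 11.03 with EGFP and 19.2 and 19.8 with Obox3, so its Obox3 libraries again lie between the other groups. After scaling Klf9 stood at -1.35 (adjusted p = 0.00651) and Klf17 at -0.84 (adjusted p = 0.0138), below the size a call needs. The Klf17 call was also lost without ICSI replicate 1 (-1.02, adjusted p = 0.0578), without ICSI replicate 2 (-1.09, adjusted p = 0.0549) and without EGFP replicate 1 (-0.85, adjusted p = 0.0458).

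In embryos given Obox3 mRNA, Obox3-ps5 stood at 56.8 to 62.4 TPM, against 1.19 to 6.87 with EGFP and 99.5 to 117.7 after ICSI. The Obox3 gene stood at 5.02 to 6.74, 0.470 to 3.22 and 64.6 to 78.7 TPM in these groups. Obox3 mRNA was compared with EGFP mRNA to ask whether the genes low in SCNT embryos differ when Obox3 is supplied. With limma 0 of 7 members were called, where 0.153% of the 18252 genes tested were (0.11% higher and 0.0438% lower), and 3 members had an unadjusted p under 0.05, as had 3294 genes in all. Those 3 were Klf5 at 1.07 (SE 0.325, adjusted p = 0.167), Klf9 at 0.95 (SE 0.238, adjusted p = 0.124) and Klf17 at 0.64 (SE 0.193, adjusted p = 0.167), and both Obox3 libraries lay above both EGFP libraries in each. Against ICSI embryos, Obox3 embryos also had 0 called members with limma, where 9.11% of genes were called (2.8% higher and 6.31% lower). Scaling moved the share of higher calls among all calls from 27.7% to 41.0% for EGFP against ICSI, from 71.4% to 88.9% for Obox3 against EGFP and from 30.7% to 51.4% for Obox3 against ICSI. At an unadjusted p under 0.05 there were 2, Klf4 at -0.56 (adjusted p = 0.127) and Klf9 at -0.61 (adjusted p = 0.146), of 5540 genes in all.

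Klf5 was at 9.93 and 19.1 TPM after ICSI, 7.17 and 4.83 with EGFP and 13.3 and 13.7 with Obox3. The EGFP and ICSI groups do not overlap, and their difference of -1.10 (SE 0.325, adjusted p = 0.0526) was not called, but was with a filter at 5 TPM (adjusted p = 0.0286) and without ICSI replicate 1 (-1.55, adjusted p = 0.0284). Klf2 was at 3.58 and 20.01 TPM after ICSI, 13.3 and 13.2 with EGFP and 24.6 and 26.1 with Obox3, so its ICSI libraries lie on both sides of the EGFP libraries. Without ICSI replicate 2, Klf2 was called higher with Obox3 than after ICSI (2.53, adjusted p = 0.032) and with EGFP than after ICSI (1.64, adjusted p = 0.0174). Klf4 was at 69.8 and 89.2 TPM after ICSI, 79.6 and 62.5 with EGFP and 56.5 and 49.9 with Obox3, and no embryo comparison called it. Klf3, at 2.88 to 4.85 TPM, and Klf6, at 0.474 to 1.51 TPM, had groups that overlap between EGFP and Obox3.

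Markers that moved with these groups are given here, and their part in the Klf values was not tested. The 5 late 2-cell markers summed to 381 to 556 TPM after ICSI, 112 to 155 with EGFP and 162 to 240 with Obox3. The 5 oocyte markers, all at 1 TPM or more in every embryo library, summed to 485.2 to 557.3, 373 to 401 and 314 to 316 TPM. Of 12 markers of the cumulus cells that gave the nuclei, 0 reached 1 TPM in every library of an embryo group and they summed to 1.62 to 4.03 TPM, with Ptx3 at 0 in all 6 libraries.

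**Figure D4:**
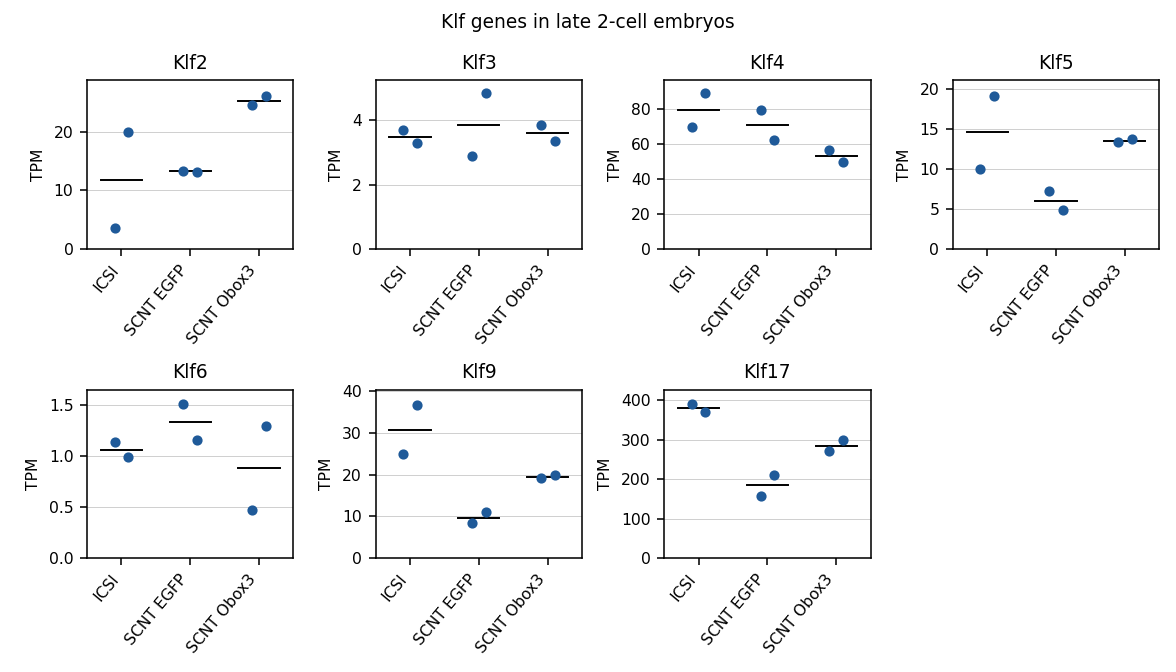
TPM of the 7 members in each late 2-cell library after ICSI, after SCNT with EGFP mRNA and after SCNT with Obox3 mRNA, with a bar at the mean of each group of 2. Klf17 and Klf9 are lowest with EGFP and intermediate with Obox3, and Klf2 has the widest gap between its ICSI libraries (3.58 and 20.01 TPM).

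The remaining Klf and Sp genes, a list of 19 of which 14 were tested in ES cells, gave 0 genes higher against Empty and 6 lower with Obox3, 3 with Obox5, 1 with Obox6 and 10 with Dux. Over all genes 13.6%, 5.47%, 1.99% and 44.4% were called lower in these comparisons. After scaling the lower counts of the list were 3, 2, 1 and 3, where 768, 490, 269 and 437 of all 20355 genes tested were lower. The list's median difference was -0.82, -0.37, -0.40 and -1.69, beside -0.42, -0.20, -0.09 and -0.97 over all genes. Klf10, an early target of TGF-beta, fell in all 4 groups, from 25.1 ± 4.92 TPM in Empty (SD, n = 2) to 3.96 ± 0.823 with Obox3, 6.33 ± 0.656 with Obox5, 9.50 ± 0.627 with Obox6 and 5.95 ± 0.389 with Dux. With Dux its difference of -1.90 was -0.57 after scaling. Klf13 was called lower with Obox3 (-1.96), Obox5 (-1.44) and Dux (-1.37, or -0.23 after scaling). Klf15 and Klf16 were called lower with Obox3 (-1.97 and -1.17, the latter -0.58 after scaling) and with Dux (-2.13 and -2.26). In embryos 13 of the list were tested and 4 were lower with EGFP than after ICSI, where 12.5% of all genes were. After scaling 3 were lower, with Sp9 at -0.98, where 1613 of all 18252 genes tested were lower. Among the 4 was Klf16 at 24.1 ± 1.52 against 84.5 ± 9.85 TPM (-1.77, SE 0.165, adjusted p = 0.00234).

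Of 20 listed genes of the LIF, STAT3 and naive circuit in which Klf2, Klf4 and Klf5 sit, 12 were lower and 0 higher with Obox3, 9 and 0 with Obox5, 8 and 1 with Obox6 and 17 and 0 with Dux, where 13.6%, 5.47%, 1.99% and 44.4% of all genes were lower. The list's median was -1.14, -0.95, -0.78 and -1.91. After scaling the lower counts were 7, 5, 7 and 6, where 768, 490, 269 and 437 of all 20355 genes tested were lower. Il6st and Stat3, which carry the LIF signal, were called lower with all 4 plasmids, at -1.83, -1.34, -1.15 and -1.93 for Il6st and -1.595, -1.16, -1.23 and -1.79 for Stat3 with Obox3, Obox5, Obox6 and Dux. After scaling Il6st stayed called with Obox3 and Obox5 and Stat3 with Obox3 and Obox6. Lifr, the LIF receptor, was called lower with Obox3, Obox5 and Dux (-1.196, -1.13 and -2.03), and with none of them after scaling (-0.62, -0.83 and -0.83). Sox2, the partner of Oct4, was at 72.4 ± 8.60 TPM in Empty, 12.1 ± 3.28 with Obox3, 13.7 ± 0.748 with Obox5, 12.2 ± 3.88 with Obox6 and 10.4 ± 1.73 with Dux. Gbx2, a target of STAT3, fell with Obox3, Obox5 and Dux, at -3.39, -2.06 and -2.36, and was at -0.78 with Obox6 (adjusted p = 0.0645). Zfp42 fell with all 4 plasmids, at -2.03, -1.57, -1.34 and -2.45 for Obox3, Obox5, Obox6 and Dux. Tcl1 fell likewise, at -2.20, -1.55, -1.92 and -1.53, the last at -0.24 after scaling. The gene higher with Obox6 was Socs3, the STAT3 feedback inhibitor.

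The MEK and ERK feedback genes, listed because MEK signalling acts on Klf2, had 9 of 10 tested. Lower were 5 with Obox3, 4 with Obox5, 4 with Obox6 and 7 with Dux, where 13.6%, 5.47%, 1.99% and 44.4% of all genes were lower, and 0 were higher. The list's median was -1.20, -0.85, -0.82 and -1.82. After scaling, 4, 4, 4 and 3 were lower, where 768, 490, 269 and 437 of all 20355 genes tested were. Scaling also gave 1 higher with Obox3, where 1587 of all genes were higher. Spry4, a feedback inhibitor of receptor signalling, fell to -3.37, -2.75, -2.34 and -2.26 with Obox3, Obox5, Obox6 and Dux. Dusp6, the ERK phosphatase, was at -1.61, -1.54, -1.26 and -2.74. Etv4 was at -2.23, -2.05, -2.41 and -1.52 and Spred1 at -1.998, -1.64, -1.67 and -2.13, and the Dux values of these latter genes were -0.13 and -0.95 after scaling. The MEK inhibitor was in the medium of every group. Spry4, Dusp6, Etv4 and Spred1 were called lower with both Obox5 and Obox6, and their part in the Klf2 values was not tested.

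Of 13 listed 2-cell genes, 8 rose with Obox3, 9 with Obox5, 6 with Obox6 and 8 with Dux, where 4.67%, 4.79%, 2.39% and 4.12% of all genes rose, and 0 fell. The 5 late 2-cell markers, all on this list, summed to only 0.135 to 1.77 TPM in Empty. Such genes passed the filter with the help of plasmid libraries where they were higher, and could not be called lower. The count of 0 is therefore no result, and the shares of all genes are not a like comparison. The list's median was 1.23, 2.02, 1.24 and 6.97. Trim43a rose with Obox6 to 69.2 ± 7.84 TPM (6.04, SE 0.221, adjusted p = 6.38e-06), near its 87.0 ± 24.0 TPM with Obox3 and 83.6 ± 9.53 TPM with Obox5, whereas Klf17 was not called with Obox6. Dppa3, a maternal factor, stood at 229.6 ± 43.5 TPM with Obox3, 259.9 ± 42.6 with Obox5 and 15.6 ± 4.25 with Obox6, against 2.69 ± 0.879 in Empty. Usp17le and Usp17lc, by contrast, were highest with Dux, at 764 ± 3.06 and 124 ± 8.14 TPM, and stood at 1.98 ± 0.868 and 4.22 ± 0.106 TPM with Obox3, with Usp17lc listed at 0 in Empty. After scaling the counts were 8, 9, 5 and 8, where 1587, 1248, 571 and 1423 of all 20355 genes tested were higher. Families with near-identical copies, such as Trim43 and Usp17l, are uncertain in level.

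The genes most like each member were taken as the 3 with the highest Pearson correlation of log2(TPM + 1) over the 19 ES libraries, among 23428 genes. These libraries share plasmid groups, depth and scaling, and no p is given. For Klf17 they were Pramel7 (0.98), Gm44172 (0.98) and Gm25110 (0.98), and that likeness rests on the 4 Obox3 and Obox5 libraries. Pramel7, an oocyte and early embryo gene of the Prame family, stood at 31.7 TPM with Obox3, 25.7 with Obox5, 1.67 with Obox6 and 0.188 with Dux, against 0.111 in Empty. For Klf4 they were Msantd3, Acsl3 and Nisch (0.98, 0.97 and 0.97) and for Klf3 Gramd1a, Pmepa1 and Dsg2 (0.99, 0.98 and 0.98). For Klf2 they were Tbc1d13, Gemin7 and N4bp3 (0.96, 0.96 and 0.95), for Klf9 Ppp1r15b, Zfp180 and Adnp (0.98 each), and for Klf6 Whamm, Ostf1 and Add1 (0.97, 0.95 and 0.94). Among the members themselves, Klf3 and Klf4 were the most alike pair (0.92), followed by Klf4 and Klf5 (0.91), and Klf3 and Klf17 the most opposed (-0.74).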

How the data were processed

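Tables of gene abundance of 19 ES cell and 6 embryo libraries were used, and the other 63 of 88 samples of the series were not analysed here. Per the file headers the deposited values are TPM, and each column sums to 1000000. Per the submitters' processing notes the tools were HISAT2, Trim Galore, featureCounts 1.6.5, Bowtie2, MACS2, bedtools and deepTools with build mm10, with no role stated for any of them. The 2 tables were normalised separately and were tested separately.

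Genes at 1 TPM or more in at least 2 libraries were tested on log2(TPM + 1) with limma 3.58.1 in R 4.3.3, in one fit of the 10 replicated ES libraries (20355 genes) and one of the 6 embryo libraries (18252 genes), with Benjamini-Hochberg adjustment. The 9 single libraries entered no test. For 3 ES libraries (1 each of Obox3, Obox5 and Dux) the column names the group but matches no replicate number of the labels. Replicates had correlations of log2(TPM + 1) of 0.951 to 0.968 in ES cells and 0.968 to 0.971 in embryos, and none were identical. Reads were recovered from the worth of 1 read on short genes, and gave whole or simple fractional reads for the 7 members in 25 of 25 libraries (tolerance 0.0015 reads). Intervals are exact 95% Poisson-based ones and the floor for a count of 0 is 3 reads.

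The members and lists were chosen with earlier results of these data known. Named were all 7 members, the 3 genes most like each, and up to 4 genes of a list called in 2 or more comparisons with Empty, those with the largest mean absolute difference first. Genes a result turns on were named too. The genes most like Klf5 are not reported here. The alternatives were a pseudocount of 0.1, a filter at 5 TPM or none, median-ratio scaling, only the groups compared, a replicate block, each library left out and all 3 unnumbered libraries left out. On simulated data for Obox3 against Empty in ES cells (20355 genes), the fit recovered 68% of genes raised by a log2 difference of 1.5, 94% of those raised by 3 and 54% of those lowered by 1.5. For Obox3 against EGFP in embryos (18252 genes) these were 36%, 80% and 32%. The simulation changed 50 genes at each size, only among genes well above the floor in the control, with no shift of scale. Klf17 in ES cells lies outside that range. With 951 genes called higher and 2770 lower for Obox3 against Empty, the real setting differs, so these rates describe the simulated data only.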

Additional observations from a re-analysis of the deposited data

Results flagged for a closer look

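For Klf2, Klf5 and Klf9, the Obox3 libraries lay on opposite sides of their controls in the 2 settings. Every Obox3 library was below every Empty library in ES cells and above every EGFP library in SCNT embryos. How many of all genes do so was not counted, so this describes the 3 genes only. For Klf2 in ES cells, Obox3 replicate 1 stood at 61.2 TPM and Empty replicate 2 at 61.5 TPM, a gap within counting error. The Klf2 groups in ES cells are therefore not clearly apart. The median gene tested stood at -0.42 in ES cells and at -0.03 in embryos. Klf5 differed by -1.87 in ES cells and by 1.07 in embryos, Klf9 by -0.55 and 0.95, and Klf2 by -0.51 and 0.88 on the log2(TPM + 1) scale. The difference between the settings was not tested, since the tables were normalised separately. In ES cells only the Klf5 difference was called, none of the embryo differences was, and the ES values of Klf2 and Klf9 were 0.12 and 0.073 after scaling.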

How the results depend on the processing

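Groups of 2 libraries limit every comparison, and over the alternatives 1290 member results kept direction and side of the threshold, 81 lost a call or threshold, 20 gained one and 39 reversed, of which only Klf2 for Obox6 against Dux had been called (1.02, and -0.19 after scaling). Of the 1290, 761 came from leaving out 1 library. Many of these left out a library of a group not compared, where only the p-value can move and not the difference. The 1290 is therefore no measure of robustness. Scaling gave 3 members for Obox5 against Dux, 3 for Obox5 against Obox6 and 2 for Obox6 against Dux. Over all genes 2847, 1012 and 2712 were then called in these comparisons. Scaling gave 1 member for EGFP against ICSI, where 1122 of all genes were higher and 1613 lower. Without the 3 unnumbered libraries, 0 were called for Obox6 against Empty, Obox3 against Obox6 and Obox5 against Obox6. Leaving out 1 library gave 2 to 6 for Obox3 against Obox6, 3 to 5 for Obox5 against Dux, 1 to 5 for Obox5 against Obox6, 0 to 1 for Obox6 against Empty, 1 to 2 for EGFP against ICSI and 0 to 1 for Obox3 embryos against ICSI. Calls over all genes also moved when 1 library was left out, so such movement is not particular to the members. The causes were not tested.

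Same-numbered samples did not deviate together (correlations 0.0457 in ES cells, 0.0140 to 0.0666 in embryos), so the numbers were not taken as a pairing. With a replicate block, 0 members were called for Obox3, Obox5 and Obox6 against Empty and for Obox3 and Obox5 against Obox6, in a fit of 7 numbered ES libraries with 1 residual degree of freedom. Under the block Klf2 was at -0.045 for Obox5 against Empty, and Klf3 at 0.075 and 0.22 for Obox3 and Obox5 against Dux.

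Scaling reversed Klf17 (-0.14) and Klf2 (-0.19) for Obox6 against Dux, Klf4 (-0.20) and Klf5 (-0.18) for Obox3 against Dux, and Klf4 for Obox5 against Dux (-0.54). It also reversed Klf2 (0.12) and Klf9 (0.073) for Obox3 against Empty, Klf6 (0.013) and Klf9 (0.00014) for Obox5 against Empty, Klf9 for Obox3 against Obox5 (0.073), Klf4 for EGFP against ICSI (0.058) and Klf5 for Obox3 embryos against ICSI (0.21). Without the unnumbered libraries Klf17 was at -0.063 for Dux against Empty, Klf2 at -0.0017 for Obox5 against Empty, and Klf3 at 0.075 and 0.22 for Obox3 and Obox5 against Dux.

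Leaving out 1 library moved Klf17 from -0.063 to 0.59 for Dux against Empty, from -0.27 to 0.64 for Obox6 against Dux and from -0.0042 to 0.90 for Obox6 against Empty. Klf2 ran from -0.19 to 0.20 for Obox5 against Empty and from -0.56 to 1.64 for EGFP against ICSI. Klf3 ran from -0.25 to 0.16 for Obox5 against Dux, -0.21 to 0.39 for EGFP against ICSI, -0.045 to 0.11 for Obox3 embryos against ICSI and -0.35 to 0.24 for Obox3 against EGFP. Klf4 ran from -0.19 to 0.24 for Obox3 against Obox5 and -0.33 to 0.016 for EGFP against ICSI. For Obox3 embryos against ICSI, Klf5 ran from -0.47 to 0.41 and Klf6 from -0.48 to 0.16. Over all genes, calls fell to 0 under the block for Obox3 (from 3721), Obox5 (2088) and Obox6 (892) against Empty, and scaling gave 1860 in place of 9867 for Dux. The block also gave 0 for Obox3 (1859) and Obox5 (897) against Obox6 and for Obox3 against Obox5 (11, or 352 from only the groups compared). Against Dux the lowest counts were 3180 of 4827 for Obox3, without Obox3 replicate 1, and 2847 of 6464 for Obox5 and 2712 of 8157 for Obox6, after scaling. In embryos they were 1475 of 3164 for EGFP against ICSI, without EGFP replicate 1, and 404 of 1663 for Obox3 against ICSI, without Obox3 replicate 2. For Obox3 against EGFP the count was 28, 0 with no filter and 289 after scaling.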
